A study of Mus musculus with 6 samples.

Results

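The genes described here are 10 transcription factors and cofactors that set the state of the Schwann cell (SC), the glial cell of peripheral nerves. They are Sox10, Sox2, Egr2, Pou3f1, Pou3f2, Jun, Nab1, Nab2, Zeb2, and Yy1. They were picked by name, with no measured value in the rule, although earlier results of these data were known. They were found through the Ensembl identifier of each row, which gave 10 of the 55401 genes in the deposited table. The data are bulk RNA-seq of SC cultures from dorsal root ganglia (DRG) of adult mice on the C57BL/6 background. There were 3 cultures labelled WT and 3 cultures of Plxnb1-/- genotype (PB1 -/- in the labels), in which a gene-trap insertion disrupts the receptor Plexin-B1 in every cell of the animal from the germline on. The study used both WT and Plxnb1+/- littermates as controls in its experiments, and of these cultures only the label WT is known. The question of the comparison was whether SCs without Plexin-B1 differ in their transcriptome. All 6 cultures grew without axons in 2 µM forskolin, which raises cyclic AMP, 10 nM neuregulin, 10% FBS, and ascorbic acid. In all of them fibroblasts were depleted with anti-Thy1 antibody, and the labels put purity above 80% at passages 3 to 5. The labels do not say that each replicate is a separate animal, so that p-values measure the spread between these cultures.

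SOX10 is the HMG-box factor that SCs need at every stage of their life. In the myelinating programme it works with the POU factors POU3F1 (Oct6) and POU3F2 (Brn2) to switch on Egr2 (Krox20), whose zinc finger protein then drives myelin and lipid genes together with the cofactors NAB1 and NAB2. JUN and SOX2 stand on the opposite side, since SOX2 marks immature SCs and JUN drives the conversion of injured SCs into repair cells, and both oppose Egr2. ZEB2 represses inhibitors of differentiation in SCs, and YY1 carries neuregulin signals to the Egr2 gene. Cyclic AMP is the classical inducer of the POU factors and of Egr2 in cultured SCs.

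The following 5 promoter stretches are shown because they belong to the gene on which the network converges (Egr2), to genes that hold the letters of a network motif, and to the member with the largest difference between genotypes (Pou3f2). Each is the 250 bases before a RefSeq transcription start in GRCm38.p6, written 5′ to 3′ on the strand of the gene, with motif matches in capitals. Egr2 is at chr10:67537619-67537868 (plus strand), Sox2 at chr3:34649745-34649994 (plus), Zeb2 at chr2:45110278-45110527 (minus), Nab1 at chr1:52500449-52500698 (minus), and Pou3f2 at chr4:22488367-22488616 (minus). The tables held windows for 8 of the 10 members, 15 in all, and none for Sox10 and Pou3f1.
Egr2: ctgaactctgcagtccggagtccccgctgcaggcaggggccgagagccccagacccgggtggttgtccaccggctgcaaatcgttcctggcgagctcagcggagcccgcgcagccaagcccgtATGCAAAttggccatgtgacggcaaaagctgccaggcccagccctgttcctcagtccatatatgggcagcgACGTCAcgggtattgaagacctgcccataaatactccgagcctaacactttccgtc
Sox2: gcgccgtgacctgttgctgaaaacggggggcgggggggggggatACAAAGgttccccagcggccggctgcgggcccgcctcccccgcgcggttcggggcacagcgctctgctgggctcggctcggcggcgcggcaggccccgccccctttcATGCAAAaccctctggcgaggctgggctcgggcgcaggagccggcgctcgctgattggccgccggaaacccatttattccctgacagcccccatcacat
Zeb2: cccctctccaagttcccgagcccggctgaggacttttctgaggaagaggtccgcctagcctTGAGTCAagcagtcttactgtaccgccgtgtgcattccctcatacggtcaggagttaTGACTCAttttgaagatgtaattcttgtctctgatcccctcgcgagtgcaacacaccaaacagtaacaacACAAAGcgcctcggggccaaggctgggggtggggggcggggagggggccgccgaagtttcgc
Nab1: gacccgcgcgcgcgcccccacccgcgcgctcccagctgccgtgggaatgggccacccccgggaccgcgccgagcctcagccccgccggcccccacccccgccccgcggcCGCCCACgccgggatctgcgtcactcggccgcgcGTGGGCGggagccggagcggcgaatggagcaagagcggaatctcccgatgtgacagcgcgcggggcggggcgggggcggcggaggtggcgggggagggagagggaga
Pou3f2: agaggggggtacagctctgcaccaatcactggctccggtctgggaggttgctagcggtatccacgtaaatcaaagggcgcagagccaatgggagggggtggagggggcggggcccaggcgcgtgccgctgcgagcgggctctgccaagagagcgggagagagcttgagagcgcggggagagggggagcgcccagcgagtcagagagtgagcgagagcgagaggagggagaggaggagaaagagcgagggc
Both strands were searched for 7 short motifs. These were GTGGGCG for EGR factors (in 7.02% of all 32851 windows of this length), TGACTCA for AP-1 (4.46%), TGACGT for the cyclic AMP response element (6.47%), ACAAAG or ACAATG for SOX factors (25.2%), CACCTG for ZEB (17.2%), AAGATGG for YY1 (4.49%), and ATGCAAA for POU factors (4.12%). The Egr2 stretch held 1 POU and 1 cyclic AMP match. The Sox2 stretch held 1 SOX and 1 POU match, the Zeb2 stretch 2 AP-1 matches and 1 SOX match, and the Nab1 stretch 2 EGR matches, 1 on each strand. A second Egr2 start, with the window chr10:67535249-67535498, held 1 EGR match. The Pou3f2 stretch held no match, nor did the windows of Nab2, Jun, and Yy1. The other Zeb2 windows (chr2:45113254-45113503, chr2:45113280-45113529, and chr2:45117443-45117692) and the Egr2 window chr10:67537316-67537565 held none either. The remaining Egr2 windows overlap the stretch shown and hold the same POU and cyclic AMP matches. A match describes letters in a window and is not a binding site.

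The total count was between 59252048 and 77280964 per library, and a floor of 3 counts was equal to 0.0388 to 0.0506 CPM (read counts adjusted for library size by TMM), which covers counting error only. Plxnb1 measured 61.8, 45.4, and 96.4 CPM in WT and 13.1, 16.6, and 18.6 CPM in Plxnb1-/- cultures (log2 fold change −2.08, edgeR adjusted p = 0.0449), in the direction of the labels. In bulk samples, fewer cells of a type and less RNA per cell cannot be told apart. WT replicate 2 stood apart from the other libraries. Its 14 SC identity markers summed to 4229 CPM, against 4905 and 4908 in the other WT and 5088 to 5539 in Plxnb1-/- cultures. Its 10 fibroblast markers summed to 7587 CPM, against 5781 and 6232 in the other WT and 5396 to 5693 in Plxnb1-/- cultures. Thy1, the antigen of the depletion, measured 429, 652, and 490 CPM in WT and 410, 409, and 384 CPM in Plxnb1-/- cultures, so that Thy1 mRNA was present in every culture. The labelled cell type held its markers, all 14 of which were detected, although S100b was only at 7.56 ± 0.59 CPM in WT (SD, n = 3). Values of the members are therefore given with and without WT replicate 2, and those of the gene lists where leaving it out turned them or moved them by over 1.5 times.

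The 10 factors differed little between the genotypes. All 10 were among the 22318 genes tested, and 0 passed the cutoffs (adjusted p below 0.05 and absolute log2 fold change above 0.25) with edgeR's quasi-likelihood test, which called 0.0358% of all tested genes (0.00448% as higher and 0.0314% as lower in Plxnb1-/- cultures). DESeq2 called 0 of the 9 members to which it gave an adjusted p, all but Pou3f1, where it called 1.50% of all genes. With edgeR, 5 members had an unadjusted p below 0.05, against 13.7% of tested genes. Of the 5, 4 were above 0, a direction in which 6.95% of tested genes had such a p. With DESeq2 4 members had an unadjusted p below 0.05, against 11.9% of tested genes. The edgeR adjusted p-values of the members lay between 0.285 and 0.891. Log2 fold changes (Plxnb1-/- minus WT) had a median of 0.15 and were above 0 in 8 of the 10, where 51.5% of all tested genes were above 0 and the median of all was 0.0050. The 95% intervals lay within ±0.4 for 8 members and within ±0.6 for 9, the exception being the barely detected Pou3f1, so that for the other 9 members a change past ±0.6 on the log2 scale lay outside the interval. Without WT replicate 2 the lowest edgeR adjusted p of the members was 0.417.

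**Figure D1:**
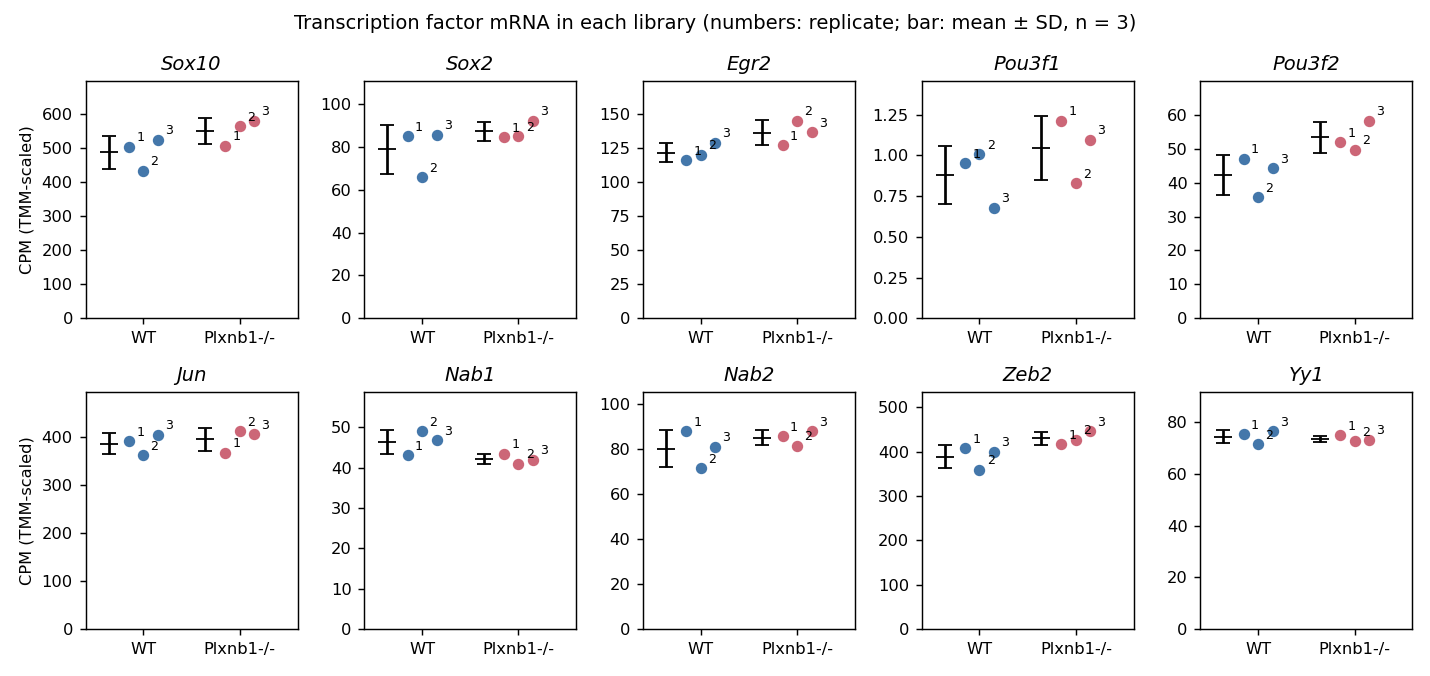
Each panel plots 1 gene, with TMM-scaled CPM from 0 on the y axis, a point for each library labelled with its replicate number, and the mean ± SD (n = 3) beside the points. Plxnb1-/- libraries lie above all WT libraries for Pou3f2 and Zeb2, the genotypes overlap for the other 8 genes, and WT replicate 2 is the lowest library in 7 panels.

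**Figure D2:**
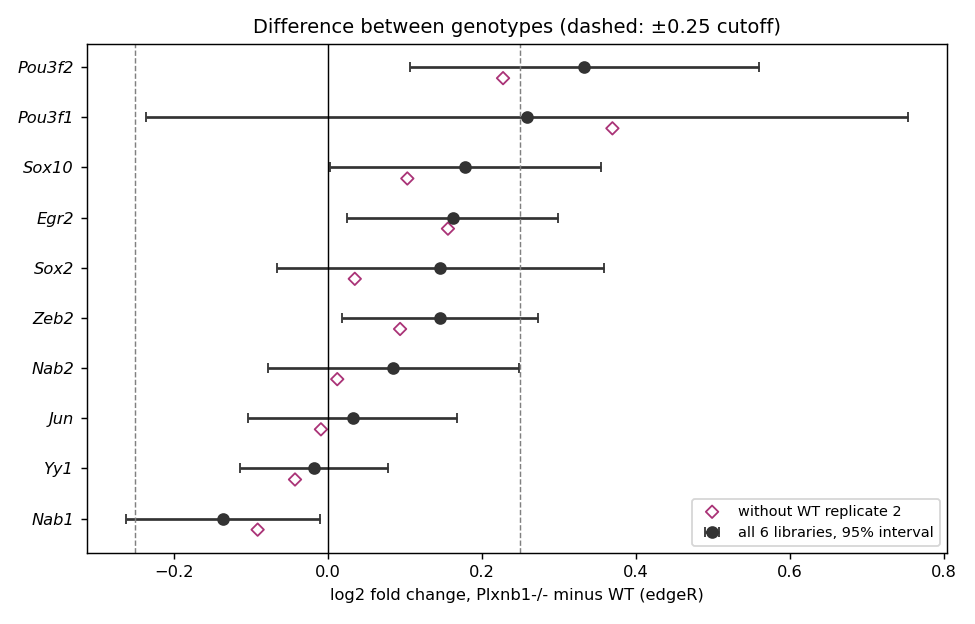
Points are edgeR log2 fold changes of Plxnb1-/- minus WT with 95% intervals from all 6 libraries, open diamonds are the values without WT replicate 2, and dashed lines mark ±0.25. Pou3f2 is highest at 0.33 and Nab1 lowest at −0.14, and without WT replicate 2 all but those of Pou3f1 and Nab1 move left.

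SOX10, the lineage factor, had the most abundant mRNA of the set per exon length. With replicates in the order 1, 2, and 3 here and below, its level was 503, 432, and 524 CPM in WT and 507, 564, and 580 CPM in Plxnb1-/- cultures. WT replicate 2 was the lowest library, Plxnb1-/- replicates 2 and 3 the highest, and the groups overlapped. The means were 486 ± 47.8 and 550 ± 38.5 CPM (SD, n = 3 each), and the log2 fold change was 0.18 (standard error 0.08, 95% interval 0.0023 to 0.35, edgeR adjusted p = 0.359). It was 0.10 without WT replicate 2. Sox2, the immature marker, measured 85.1, 65.9, and 85.9 CPM in WT and 84.7, 85.1, and 92.4 CPM in Plxnb1-/- cultures. WT replicate 2 alone was low, and the other two WT values lay among those of Plxnb1-/- cultures. The log2 fold change of Sox2 was 0.15 (interval −0.07 to 0.36, edgeR adjusted p = 0.523) and 0.03 without WT replicate 2. Sox2 lies within an intron of the noncoding Sox2ot, with no shared exon, and Sox2ot had a log2 fold change of 0.21 (edgeR adjusted p = 0.345).

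Of the POU factors, Pou3f2 was by far the more abundant transcript in these cultures. Pou3f2 measured 47.0, 35.6, and 44.2 CPM in WT and 52.0, 49.7, and 58.3 CPM in Plxnb1-/- cultures. All Plxnb1-/- values lay above all WT values, which leaving out WT replicate 2, the lowest library, cannot change. Among all tested genes, 9.30% had Plxnb1-/- values above all WT values. The means were 42.3 ± 5.95 and 53.3 ± 4.48 CPM, and the log2 fold change of 0.33 (standard error 0.10, interval 0.11 to 0.56) was the largest of the set, with an edgeR adjusted p of 0.285 and a DESeq2 adjusted p of 0.0554. An exact two-sided permutation test gave p = 0.1, the smallest that 3 against 3 allow. The log2 fold change was 0.23 without WT replicate 2. Pou3f1 measured 0.953, 1.01, and 0.678 CPM in WT and 1.21, 0.828, and 1.10 CPM in Plxnb1-/- cultures, from 48 to 95 counts a library. The groups overlapped, and the log2 fold change was 0.26 (edgeR adjusted p = 0.632), with the widest interval of the set (−0.24 to 0.75). It was 0.37 without WT replicate 2. Per exon length, the Pou3f2 level was 34.2 times that of Pou3f1, from 24.3 to 45.0 over the libraries, and both genes are intronless. Exons of an antisense gene cover 8.57% of the exon length of Pou3f1. Since the strand setting of the counting is not named, reads of that pair cannot be told apart there.

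Egr2, the myelin factor, measured 116, 120, and 129 CPM in WT and 127, 145, and 136 CPM in Plxnb1-/- cultures. WT replicate 3 lay above Plxnb1-/- replicate 1, and the groups otherwise kept apart. The means were 122 ± 6.68 and 136 ± 9.16 CPM, with a log2 fold change of 0.16 (standard error 0.06, interval 0.03 to 0.30, edgeR adjusted p = 0.315). Unlike most members, Egr2 was not lowest in WT replicate 2, and its log2 fold change was 0.16 without that library too. Nab1, a cofactor of EGR proteins, measured 43.1, 49.0, and 46.8 CPM in WT and 43.5, 41.0, and 42.0 CPM in Plxnb1-/- cultures. It was the only member with its highest value in WT replicate 2, and WT replicate 1 lay among the Plxnb1-/- values. Its log2 fold change was −0.14 (standard error 0.06, interval −0.26 to −0.01, edgeR adjusted p = 0.340) and −0.09 without WT replicate 2. Nab2, the other cofactor, measured 87.7, 71.2, and 80.9 CPM in WT and 85.5, 81.2, and 87.7 CPM in Plxnb1-/- cultures, with WT replicate 2 low and the rest overlapping. Its log2 fold change was 0.09 (interval −0.08 to 0.25, edgeR adjusted p = 0.631) and 0.01 without WT replicate 2. Exons of the antisense gene Gm16229 cover 35.7% of the exon length of Nab2. Gm16229 had 22.7 ± 1.99 CPM in WT and 24.3 ± 0.40 CPM in Plxnb1-/- cultures, and since the strand setting of the counting is not named, reads of the pair cannot be told apart.

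Jun, the repair factor, measured 391, 362, and 405 CPM in WT and 367, 412, and 406 CPM in Plxnb1-/- cultures. The groups overlapped almost entirely, with the low values in replicate 2 of WT and replicate 1 of Plxnb1-/- cultures. The log2 fold change was 0.03 (interval −0.10 to 0.17, edgeR adjusted p = 0.854), and it was −0.01 without WT replicate 2. Zeb2 measured 407, 359, and 400 CPM in WT and 417, 426, and 446 CPM in Plxnb1-/- cultures. All Plxnb1-/- values lay above all WT values, by a small gap between WT replicate 1 and Plxnb1-/- replicate 1. The log2 fold change was 0.15 (standard error 0.06, interval 0.02 to 0.27, edgeR adjusted p = 0.325), the exact permutation test again gave its smallest p of 0.1, and the value without WT replicate 2 was 0.09. Yy1 measured 75.3, 71.5, and 76.5 CPM in WT and 74.8, 72.6, and 73.1 CPM in Plxnb1-/- cultures, overlapping, with the narrowest spread of the set. Its log2 fold change was −0.02 (interval −0.11 to 0.08, edgeR adjusted p = 0.891) and −0.04 without WT replicate 2. The overlap of Yy1 rested on that library. The other WT values lay above all Plxnb1-/- values, by a small gap between 75.3 and 74.8 CPM. In all, 2 of the 10 members had genotypes that did not overlap, which is 20%, beside 19.7% of all tested genes, and 0 had every Plxnb1-/- value below every WT value, beside 10.4%.

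Levels were compared between genes per length of merged exons, scaled to the same total over all genes in each library. WT means were 595 ± 65.6 for Sox10, 452 ± 30.9 for Jun, 143 ± 22.2 for Sox2, 134 ± 7.79 for Egr2, and 101 ± 11.7 for Nab2. They were 72.7 ± 5.83 for Zeb2, 43.3 ± 2.06 for Yy1, 42.1 ± 2.26 for Nab1, 28.3 ± 4.31 for Pou3f2, and 0.851 ± 0.17 for Pou3f1. Over both genotypes, Sox2 and Egr2 could not be ordered, since Sox2 was the higher in 4 of 6 libraries, nor could Yy1 and Nab1 or Nab1 and Pou3f2, each ordered in 5 of 6 with overlapping ranges. The other neighbours kept their order in all 6 libraries. Jun, the antagonist, was at 3.23 times the Egr2 level, and Sox10 at 4.20 times the Sox2 level. The following features bear on this order. Reads that cross an intron are lost with the aligner used, which can lower the 6 spliced members against the 4 intronless ones (Sox2, Pou3f1, Pou3f2, and Jun), by an amount that was not tested. Zeb2 has 29 annotated transcripts whose exons merge to 19942 bases, more than any 1 transcript need use.

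**Figure D3:**
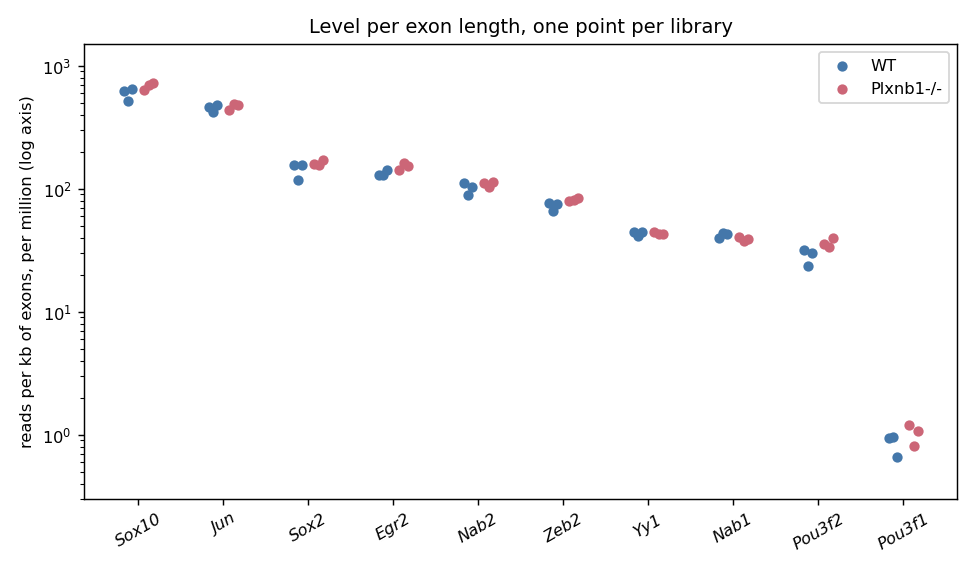
The level per exon length is plotted on a log axis for each gene, with 1 point for each of the 3 WT and 3 Plxnb1-/- libraries, ordered by the mean. Sox10 and Jun lead at 595 and 452 in WT, and Pou3f1 lies far below the other 9 at 0.851.

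Ratios between pairs of members within a library do not depend on its scaling. The log2 ratio of Egr2 to Jun counts was −1.76, −1.59, and −1.65 in WT and −1.53, −1.50, and −1.57 in Plxnb1-/- cultures, a mean difference of 0.13 with every Plxnb1-/- value above every WT value. WT replicate 2 lay nearest to the Plxnb1-/- cultures in this ratio, and the gap to Plxnb1-/- replicate 3 was small. The ratio of Sox10 to Sox2 differed by 0.02 and that of Zeb2 to Sox2 by −0.01, less than the SDs within WT (0.08 and 0.12). Those of Nab1 to Nab2 (−0.22), Pou3f1 to Pou3f2 (−0.09), and Egr2 to Nab2 (0.07) were likewise smaller than the SD within WT (0.24, 0.44, and 0.19). The genotypes overlapped in every one of these ratios but that of Egr2 to Jun. Among all tested genes, 19.7% had CPM that did not overlap between genotypes, and the like share over ratios was not computed. The ratios were described only, without a test.

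Most members were lowest in the same library. WT replicate 2 was the lowest of all libraries in 7 of 10 members (70.0%), beside 27.0% of all tested genes. Within genotypes the spread of Pou3f2 exceeded that of 94.3% of genes of like level, that of Sox2 94.0%, and that of Sox10 85.4%, while that of Yy1 exceeded only 24.1%. These spreads include WT replicate 2 and were not computed without it. Over the 6 libraries, the genes with centred log2 CPM nearest to Sox10 were Cul9 and Sppl2b, at root mean square distances of 0.0100 and 0.0117 against a median of 0.147 over 10158 genes. Those nearest to Egr2 were Abhd4 and Osgin1 (both 0.0225, median 0.126), and those nearest to Jun were 5830417I10Rik (0.0144) and Lypla2 (0.0172, median 0.0980). With 6 libraries these are descriptions of likeness.

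**Figure D4:**
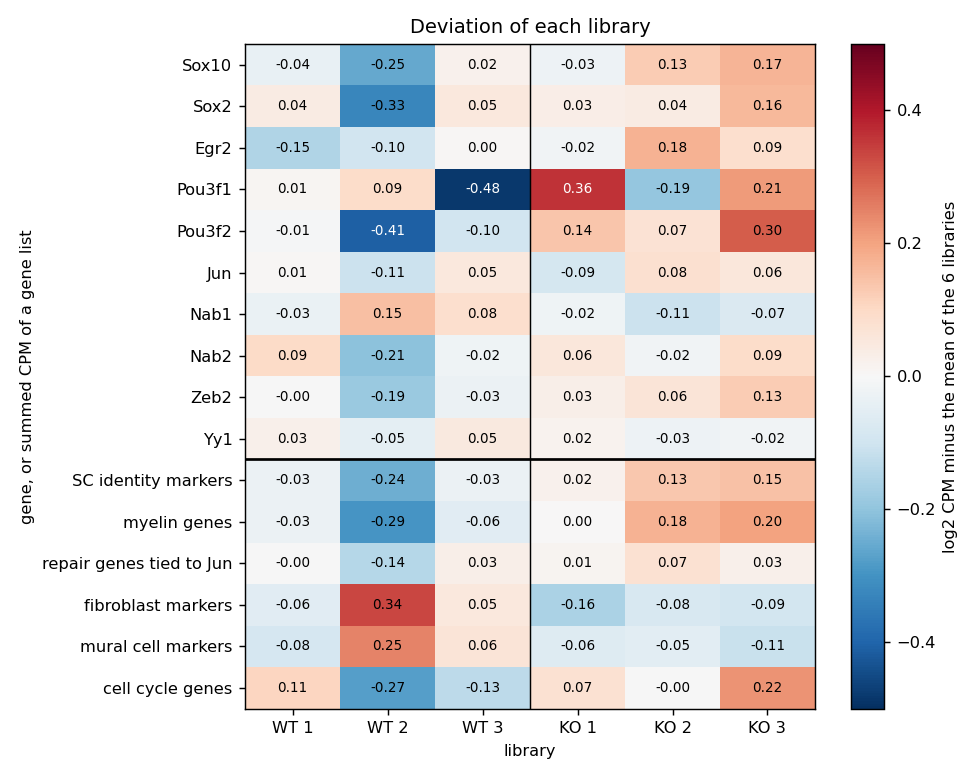
Each cell gives log2 CPM of a gene, or of the summed CPM of a gene list, minus its mean over the 6 libraries. WT replicate 2 is at −0.25 for Sox10, −0.33 for Sox2, −0.41 for Pou3f2, −0.24 for the SC identity markers, and 0.34 for the fibroblast markers.

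Relatives of the members were next compared. Of 15 paralogs, 13 were tested, 5 were above 0 and 8 below, the median was −0.18, and edgeR called 0 (5 at an unadjusted p below 0.05). The JUN relatives differed from Jun in their values. Junb measured 126, 146, and 136 CPM in WT and 114, 118, and 108 CPM in Plxnb1-/- cultures, without overlap (log2 fold change −0.26, edgeR adjusted p = 0.266, DESeq2 adjusted p = 0.0167), and was the 1 paralog that DESeq2 called. Jund, named after its values were seen, measured 69.2, 67.1, and 71.1 CPM in WT and 61.2, 61.2, and 60.7 CPM in Plxnb1-/- cultures (log2 fold change −0.18, DESeq2 adjusted p = 0.0388), which is under the fold cutoff. Without WT replicate 2 the log2 fold changes were −0.21 for Junb and −0.20 for Jund. The median of the paralogs was then −0.11. That Junb and Jund differ from Jun in their change was not tested. Sox9 had 11.2 ± 1.63 CPM in WT and 9.50 ± 0.44 CPM in Plxnb1-/- cultures (log2 fold change −0.23, and −0.11 without WT replicate 2), and Sox8 2.66 ± 0.75 and 3.99 ± 0.70 CPM (0.57). Yy2 was near 1 CPM, with a log2 fold change of 0.21. The edgeR adjusted p was 0.303 or more for these 3 genes.

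The genes that the members regulate, or that act beside them, gave 0 calls with edgeR in every list. Of 20 myelin genes, targets of EGR2 and SOX10, 19 were above 0, with a median of 0.29, 11 had an unadjusted p below 0.05 in that direction, and DESeq2 called 2 as higher. Without WT replicate 2, 19 were above 0 and the median was 0.18. Prx, which encodes the scaffold periaxin of myelinating SCs, measured 77.9, 65.2, and 85.4 CPM in WT and 93.6, 133, and 140 CPM in Plxnb1-/- cultures, without overlap (log2 fold change 0.68, edgeR adjusted p = 0.266, DESeq2 adjusted p = 2.32e-04). The second gene called by DESeq2 was Ugt8a (log2 fold change 0.49), an enzyme of myelin lipid synthesis, and the ends of the list were Cldn19 (0.62), Mpdz (0.01), and Ncmap (−0.03). These 3 had 0.35, −0.02, and 0.06 without WT replicate 2. Of 13 tested repair genes tied to Jun, 10 were above 0, with a median of 0.05, 5 had an unadjusted p below 0.05 (1 of them below 0), and DESeq2 called 1 as higher, the cytokine gene Clcf1 (47.6 ± 5.35 against 59.1 ± 2.16 CPM, log2 fold change 0.31). Ccl2, a chemokine, had −0.25, Bdnf −0.06, and Cdh1 0.37. Without WT replicate 2, 8 of the 13 were above 0, with a median of 0.12, and Bdnf had −0.04.

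Of 12 genes for inhibitors of SC differentiation, a class on which ZEB2 acts, 9 were above 0, with a median of 0.22, 4 had an unadjusted p below 0.05, and DESeq2 called 1 as higher. That gene was Id2, which encodes a partner that blocks helix-loop-helix factors. It measured 90.9, 63.3, and 81.5 CPM in WT and 102, 110, and 113 CPM in Plxnb1-/- cultures, without overlap (log2 fold change 0.46, edgeR adjusted p = 0.266, DESeq2 adjusted p = 0.00566). Id4 had 0.41, Hes1 −0.05, and Egr1 −0.18. Without WT replicate 2 the median of the list was 0.06, Id2 had 0.33, Id4 0.23, and Egr1 −0.06. Of 33 tested regulators that accompany the members in the SC lineage, 21 were above 0, with a median of 0.05, 8 had an unadjusted p below 0.05, and DESeq2 called 3 as higher. They were the retinoid receptor gene Rxrg (1.53 ± 0.45 against 2.92 ± 0.69 CPM, log2 fold change 0.92), the ETS factor gene Etv1 (0.36), and Sox5 (0.27), which encodes a SOX protein without an activation domain. Pax3 (0.40), Nfatc4 (−0.17), and Sox11 (−0.19) stood at the other ends of the list. They had 0.03, −0.08, and −0.01 without WT replicate 2, when the median of the list was 0.03. Adjusted p-values by edgeR were 0.266 or more for every gene named from these 4 lists.

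Markers of cell types were set beside these values. All 14 SC identity markers were above 0 (median 0.20, 9 at an unadjusted p below 0.05, 0 called by edgeR), and 13 without WT replicate 2 (median 0.15). Sema3b, which encodes a secreted semaphorin, had the largest value (406 ± 24.7 against 544 ± 53.1 CPM, log2 fold change 0.42, edgeR adjusted p = 0.199) and was the 1 marker that DESeq2 called. Ngfr had 0.30, Ncam1 0.04, and S100b 0.02, which were 0.20, 0.01, and 0.09 without WT replicate 2. Of 10 fibroblast markers, 8 were below 0 (median −0.17, 4 at an unadjusted p below 0.05, 0 called by edgeR or DESeq2), and 6 without WT replicate 2 (median −0.09). Mfap5 had −0.62, Thy1 −0.39, Lum 0.08, and Col14a1 0.23. Mfap5 had −0.37, Thy1 −0.20, and Lum 0.13 without WT replicate 2. The part of these markers in the values of Sox10, Pou3f2, Zeb2, and the myelin genes was not tested.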

How the data were processed

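Libraries were poly(A)-selected and made with a strand-preserving kit. Per the labels and the paper's methods, the authors trimmed reads (Trim Galore 0.6.5), aligned them to mm10 with Bowtie2 2.4.1, which does not span introns, removed duplicates (SAMtools 1.10), and counted exonic reads with featureCounts. The deposited counts are not normalized. The strand setting is not given in the sources used here. The authors also deposited FPKM values, whose length was the gene span, introns included, for all 10 members (within 2%), and which served only as an alternative.

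A gene entered the test with 2 or more counts in 5 or more of the 6 libraries. Genotypes, taken from the sample titles, were compared with edgeR 4.0.16 (TMM, quasi-likelihood, R 4.3.3), with Benjamini-Hochberg adjustment over all tested genes. DESeq2 1.42.0, the tool of the study, and limma 3.58.1 on log2 FPKM with a pseudocount of 0.1 or 1 were alternatives, beside other scalings, filters, a replicate block, the removal of chromosome 9, and the removal of single libraries. The procedure was tested on simulated data in which some genes were changed. There edgeR called 175 changed and 13 unchanged genes, and DESeq2 179 changed and 29 unchanged genes. Symbols came from GENCODE (GRCm38), with 55141 identifiers matched, and promoters from RefSeq tables (GRCm38.p6). Genes named are the members, Plxnb1, called genes of the lists, the 2 highest and 2 lowest log2 fold changes of each list at a mean of at least 1 CPM, and the 2 genes nearest to Sox10, Egr2, and Jun above 10 CPM. Jund and the noncoding neighbours Sox2ot and Gm16229 were added outside this rule after their values were seen. Members and lists were chosen with earlier results of these data known. Protein sequences were not analysed here.

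Same-numbered WT and Plxnb1-/- libraries did not deviate together, so replicate number was left out of the model. The exact permutation test was two-sided and used log2 CPM (prior count 2).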

Additional observations from a re-analysis of the deposited data

How the results depend on the processing

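The members gave 0 calls under every alternative run, with Pou3f1 left without an adjusted p by DESeq2. Their log2 fold changes kept their sign except those of Jun, from −0.0091 (without WT replicate 2) to 0.0799, and Yy1, from −0.0427 to 0.0021 (without WT replicate 3), with 1 library left out. Pou3f1 could not be tested at 1 CPM or more in 3 libraries. The lowest adjusted p of any member under any alternative was 0.0554, that of Pou3f2 with DESeq2. The number of members with an unadjusted p below 0.05, 5 by edgeR, was 1 without Plxnb1-/- replicate 2 and 1 without Plxnb1-/- replicate 3, and 3 without WT replicate 2. Over all genes, 8 were called by edgeR (1 higher, 7 lower), 335 by DESeq2 (154 higher, 181 lower), 296 without a filter on low counts (120 higher, 176 lower), 5 at 1 CPM or more in 3 libraries, 3 by limma on FPKM with either pseudocount, 2 without chromosome 9, and from 4 to 25 with 1 library left out, the 25 being without WT replicate 2. With a replicate block there were 5 calls and no member among them, and the correlations of same-numbered libraries (−0.02, 0.01, and 0.07) gave no sign of pairing. Levels ranked by the deposited FPKM gave the same rank for 4 of 10 members. Of the fibroblast markers, 4 were above 0 without WT replicate 2, an alternative chosen after seeing the data, and the other lists stayed within 1.5 times their count. The cause of these shifts was not tested. Pou3f1, at 48 to 95 counts a library, had the widest interval.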

Other observations

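All 10 neuron markers were detected and above 0 (median log2 fold change 0.43, edgeR calls 0, 1 at an unadjusted p below 0.05, DESeq2 calls 0), with sums of 151 to 166 CPM in WT and 167 to 190 CPM in Plxnb1-/- cultures. Most of that was Tubb3 (138 ± 8.75 CPM in WT, log2 fold change 0.12), which SCs can also express, while Scn10a (0.70), Syt1 (0.53), and Nefh (0.05) were near 1 or 2 CPM. The median was 0.39, Tubb3 had 0.07, and Nefh 0.33 without WT replicate 2. All 10 macrophage markers were above 0 (median 0.24, 3 at an unadjusted p below 0.05), with sums of 42.5 to 48.6 and 48.6 to 58.1 CPM. DESeq2 called 1 of them, the chemokine receptor gene Cx3cr1 (log2 fold change 0.49, edgeR adjusted p = 0.273). Itgam had 0.32, Mrc1 0.13, and Cd68 0.13, and without WT replicate 2 the median was 0.28 and Cd68 had 0.20.

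Of 8 mural cell markers, 5 were above 0 (median 0.08), with sums of 1064 to 1337 CPM in WT, the highest in WT replicate 2, and 1043 to 1088 CPM in Plxnb1-/- cultures. Myh11 had 0.21, Abcc9 0.12, Cspg4 −0.29, and Des −0.41. With WT replicate 2 left out, the median turned to −0.0076 and Myh11 to −0.08, while Abcc9 had 0.08 and Cspg4 −0.16. Among 8 endothelial markers, the only 1 with an unadjusted p below 0.05 with edgeR was above 0, without overlap, at a mean under 1 CPM. Of the 8, 6 were below 0 (median −0.25), with Emcn at 0.04, Cdh5 at −0.06, Kdr at −0.33, and Pecam1 at −0.66. Leaving out WT replicate 2, 5 were below 0 (median −0.16), Cdh5 turned to 0.05, Kdr had −0.19, Pecam1 −0.25, and Emcn 0.02. Of 7 satellite glia markers, which SCs largely share, 6 were above 0 (median 0.12), from Aatk (0.27) and Cadm2 (0.23) to Glul (0.02) and Gja1 (−0.12). Aatk had 0.16 without WT replicate 2. All 14 cell cycle genes were above 0 (median 0.15, and 0.06 without WT replicate 2), from Mki67 (0.34) and Top2a (0.25) to Mcm5 (0.06) and Mcm2 (0.02). Mki67 had 0.20, Top2a 0.17, Mcm5 0.01, and Mcm2 −0.0004 without WT replicate 2. In these 4 lists edgeR and DESeq2 called 0, and 8 genes had an unadjusted p below 0.05 with edgeR.

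Members were also set against Sox10 within the same library, a scale chosen after the values were seen. Of the other 9 members, 7 had a lower mean ratio in Plxnb1-/- than in WT cultures. This count follows from the choice of Sox10 and adds no separate result. With all libraries, the log2 fold change of Sox10 (0.18) was exceeded only by those of Pou3f1 and Pou3f2. Without WT replicate 2 it was 0.10, and Egr2 (0.16) exceeded it as well. The log2 ratio of Jun to Sox10 was −0.36, −0.26, and −0.37 in WT and −0.47, −0.45, and −0.51 in Plxnb1-/- cultures, without overlap. That of Nab1 to Sox10 differed by −0.32, with Plxnb1-/- replicate 1 at −3.543 and WT replicate 1 at −3.542, which leaves almost no gap. The ratio of Pou3f2 to Sox10 differed by 0.16 with overlapping genotypes. These differences were not tested. Among all tested genes, 19.7% had CPM without overlap, and the share of ratios to Sox10 without overlap was not computed.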
